A study of Mus musculus with 4 samples.

Results

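The YAP-TEAD pathway is described here by 8 genes in cultured melanocytes of mice that lack or carry the aryl hydrocarbon receptor (AhR). The genes are the coactivators Yap1 and Wwtr1 (also called Taz), the DNA-binding factor Tead1, and 5 genes known as their targets: Ccn1 (also Cyr61), Ccn2 (also Ctgf), Ankrd1, Amotl2 and Lats2. They were chosen by name for their place in the pathway, and for each the probe set brightest on average over the 4 arrays was used. All 8 were measured, among 12393 genes with a probe set of a single gene symbol, and 18 of the array's 22690 probe sets belonged to them. Cells came from tail epidermis of 2 female AhR knockout mice, which carry the AhRtm1Bra allele with exon 2 of Ahr deleted, and of 2 female wild-type C57BL/6 mice. Ages are not given in the labels. All cultures were kept for 6 to 8 weeks in a serum-free melanocyte growth medium and contained visible melanin, and the labels name no further treatment. Each array holds RNA from a single mouse, so n is 2 in each group. AhR regulates transcription once it has bound a ligand, such as dioxins or some natural compounds, and the comparison asks which transcripts of these cells differ when it is missing.

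In the Hippo pathway, a kinase cascade ending in LATS1 and LATS2 phosphorylates YAP and TAZ and so keeps them out of the nucleus. Unphosphorylated YAP and TAZ enter the nucleus, bind TEAD factors and switch on genes such as Ccn1, Ccn2 and Ankrd1. Amotl2 and Lats2 are targets that also restrain YAP, which makes them part of a negative feedback loop. The activity of YAP and TAZ is set largely by their phosphorylation and location, which arrays of RNA do not measure. In cultured cells the pathway is known for its response to cell density, cell shape and matrix stiffness.

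Of the 8 genes, only Ankrd1, a classical YAP-TEAD target, passed the test between the genotypes: it fell to 20.7% of the wild-type mean signal in knockout cultures. The other 7 did not pass, which with 2 arrays a group does not show that they were unchanged. Among them, the brightest probe set of Wwtr1 and those of Ccn1 and Ccn2 read 28.0%, 35.1% and 38.7% of the wild-type mean, and Tead1, Lats2, Yap1 and Amotl2 read between 67.3% and 87.8%. All 8 log2 differences of the brightest probe sets were below 0, as were 49.7% of those of all tested genes. The median of the 8 was -0.95, against 0.01 over all tested genes. A dimmer probe set of Yap1 and one of Lats2 had positive differences, 0.11 and 0.35. The test was limma on log2(signal + 16), with p-values adjusted over the 7436 genes in the top 60% by mean signal and a threshold of 0.05. At that threshold 1 of the 8 genes fell and none rose, where 0.753% of all tested genes fell and 0.202% rose, 0.955% in all. At an unadjusted p under 0.05, 4 of the 8 were lower and 0 higher, where 12.9% of all tested genes were lower and 7.68% higher. The signals did not overlap between the groups for 6 of the 8, all of them lower in knockout cells, where 26.7% of tested genes were lower and 28.7% higher without overlap, 55.4% in all. With 2 arrays a group an exact permutation test of any single gene cannot give a p below 0.333, so the p-values rest on the spread that limma borrows across genes. All 8 genes passed the low-signal filter, Tead1 narrowly, with a mean signal of 81.5 against the lowest tested mean of 81.1. The knockout mean of Tead1, 65.6, is under that, so Tead1 was tested only through its wild-type signal.

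**Figure D1:**
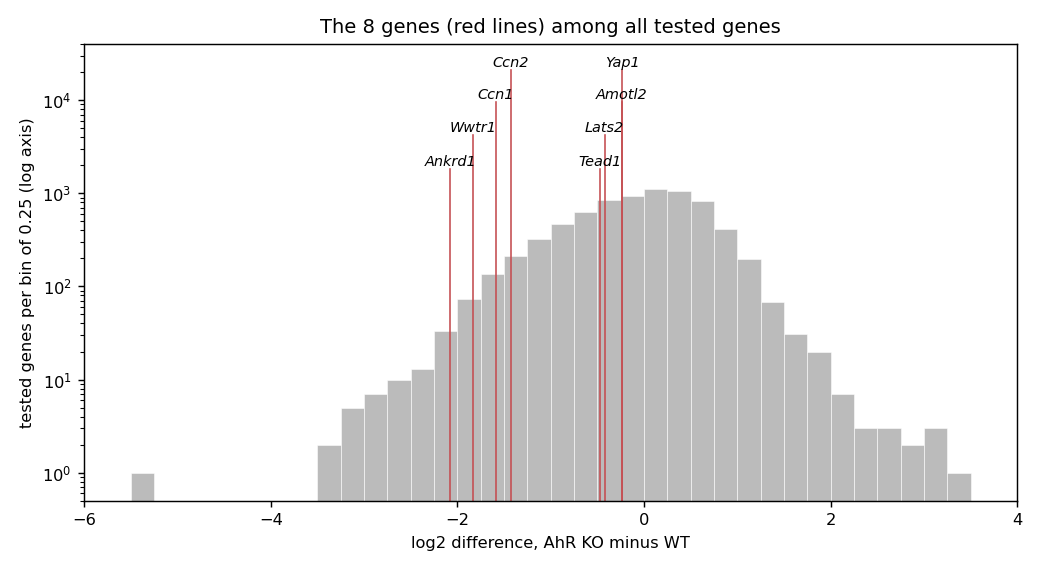
Log2 differences (AhR knockout minus wild type, x axis) of all 7436 tested genes as a histogram with a logarithmic count axis, with a red line for each of the 8 genes. Ankrd1, Wwtr1, Ccn1 and Ccn2 lie between -2.08 and -1.43, on the lower flank, and the other 4 lie between -0.47 and -0.24.

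The arrays were checked first. The brighter Ahr probe set read 241 and 843 in AhR knockout 1 and 2, against 825 and 874 in wild type. Whether it covers exon 2 was not analysed here, so it checks no label. Cyp1b1, an AhR-induced cytochrome P450, read 14.0 and 23.1 in the knockout arrays and 1216 and 1410 in the wild-type arrays, and Ahrr, the AhR repressor, read 30.8 and 23.3 against 202 and 242. The array of AhR knockout 2 stood apart in its control probe sets: its Gapdh 3' to 5' ratio was 11.9, against 1.98 in AhR knockout 1 and 2.13 and 2.85 in wild type. The actin 3' to 5' ratio was 27.98 in AhR knockout 2, against 6.999 in AhR knockout 1 and 7.89 and 8.71 in wild type. Such ratios rise with shortened RNA. The actin ratio was above the Gapdh ratio on every array, so the Gapdh values alone do not show intact RNA on the other arrays. Over the 7436 tested genes, AhR knockout 1 correlated more closely with wild type 1 (r = 0.9285) than with AhR knockout 2 (r = 0.9153). AhR knockout 2 correlated best with AhR knockout 1, and the wild-type arrays with each other, at 0.9583. Values are therefore given array by array.

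The promoters of 6 of the genes were in the RefSeq promoter table (GRCm38.p6), which holds 250 bases before and 50 bases after each transcript start. Ccn2 and Tead1 were not in it. The letters GGAATG, the core of the sequence that TEAD factors bind, were looked for on both strands, where the reverse reads CATTCC. All 6 genes held them in a listed promoter, and so did 7 of their 8 listed promoters, against 14.7% of all 32851 promoters in the table and 14.4% of the 6103 tested genes with a listed promoter. These 6 genes were chosen as members of the pathway, and the letters are a description, not shown binding. The stretches are shown because the results turn on the genes behind them, with the TEAD letters in capitals and 5′ to 3′ along each gene. Ankrd1 and Ccn1 are given with the whole 250 bases before the start, since they had the lowest signals relative to wild type among the 4 of the 5 target genes with a listed promoter. Ankrd1 lies at chr19:36119845-36120094 (minus strand), with the letters starting 210 and 123 bases before the transcript start. Ccn1 lies at chr3:145649986-145650235 (minus strand), with the letters 103 bases before the start.
Ankrd1: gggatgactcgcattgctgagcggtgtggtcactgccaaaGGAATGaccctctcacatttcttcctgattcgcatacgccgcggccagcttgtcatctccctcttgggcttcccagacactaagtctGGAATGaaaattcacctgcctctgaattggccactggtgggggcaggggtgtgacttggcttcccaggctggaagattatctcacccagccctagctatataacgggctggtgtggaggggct
Ccn1: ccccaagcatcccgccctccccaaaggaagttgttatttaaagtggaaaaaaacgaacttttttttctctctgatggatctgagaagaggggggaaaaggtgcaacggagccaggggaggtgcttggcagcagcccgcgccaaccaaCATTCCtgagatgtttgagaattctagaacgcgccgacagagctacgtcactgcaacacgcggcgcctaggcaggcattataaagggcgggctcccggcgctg

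Shorter stretches around the letters show that the coactivator genes and the feedback genes carry them too. They lie at chr3:57576014-57576073 for Wwtr1 (minus strand, 136 bases before the start), chr9:8004705-8004764 for Yap1 (minus strand, 141 bases before), chr9:102717712-102717771 for Amotl2 (plus strand, 65 bases before) and chr14:57746102-57746131 for Lats2 (minus strand, 4 bases after).
Wwtr1: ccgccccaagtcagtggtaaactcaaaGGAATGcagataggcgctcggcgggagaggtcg
Yap1: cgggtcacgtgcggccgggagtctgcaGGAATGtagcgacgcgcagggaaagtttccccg
Amotl2: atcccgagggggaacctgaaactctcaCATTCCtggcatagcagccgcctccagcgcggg
Lats2: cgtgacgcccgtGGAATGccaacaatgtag
Wwtr1 and Ankrd1, with the largest differences of the 8 genes, and Yap1 and Amotl2, with the smallest, all hold the letters. The core letters of the AhR response element, GCGTG or CACGC on the other strand, were in the promoters of Yap1, Wwtr1 and Ccn1, that is 3 of the 6 genes, against 59.5% of the 6103 tested genes with a listed promoter and 35.2% of all genes in the table. Ankrd1 has none of them in this window. The AhR letters do not overlap the TEAD letters in any of these promoters.

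**Figure D2:**
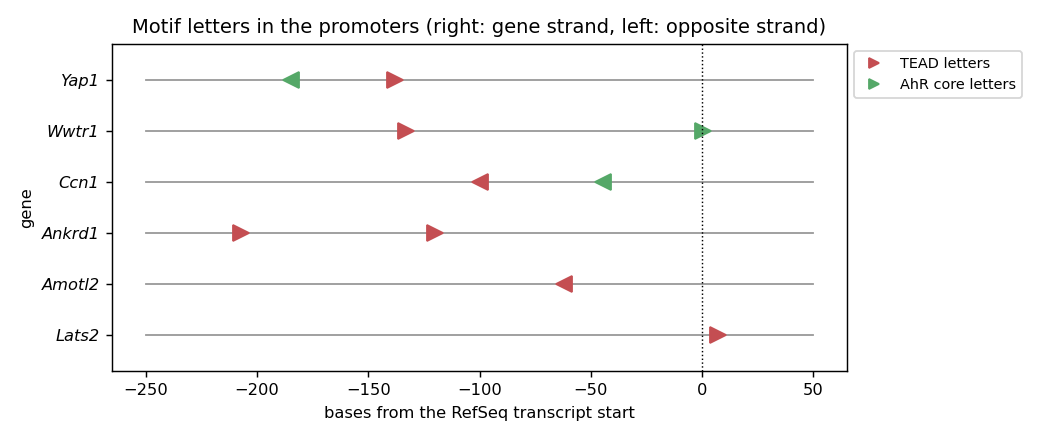
Positions of the TEAD letters (red) and of the AhR core letters (green) in the first listed promoter of 6 genes, in bases from the RefSeq transcript start, with the triangle's direction giving the strand. All 6 genes carry the TEAD letters, Ankrd1 at 2 places, and Yap1, Wwtr1 and Ccn1 carry the AhR letters.

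The coactivator genes differed from each other in the values of their brightest probe sets. Yap1, which encodes YAP, read 1822 and 1697 in AhR knockout 1 and 2, against 2360.3 and 1820.2 in wild type 1 and 2. AhR knockout 1 lay just above wild type 2, so the groups overlapped. The log2 difference was -0.24 ± 0.35 (SE), with a 95% interval from -1.01 to 0.54 and adjusted p = 0.72. The second Yap1 probe set was dim, at 151 and 67.3 in knockout and 108 and 80.6 in wild type. It also overlapped, with a log2 difference of the opposite sign, 0.11. Wwtr1, which encodes TAZ, read 1661 and 1048 in the knockout arrays and 3851 and 5828 in the wild-type arrays. Both knockout arrays were far below both wild-type arrays. Its log2 difference was -1.83 ± 0.38, with a 95% interval from -2.68 to -0.98 and adjusted p = 0.057, the 111th lowest difference among 7436 genes.

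The size for Wwtr1 depended on the probe set. A second probe set read 660 and 391 in knockout against 655 and 589 in wild type, where the groups overlapped and the log2 difference was -0.28. Another read 538 and 442 in knockout against 692 and 607 in wild type, without overlap and with a log2 difference of -0.40. All 3 were lower in AhR knockout 2 than in both wild-type arrays, but only the brightest was lower by more than 2-fold. With the mean of the 3 probe sets the log2 difference was -0.84, with adjusted p = 0.24. Which transcripts of Wwtr1 each probe set covers was not analysed here. The log2 difference of the brightest was -2.13 without wild type 1 and -1.53 without wild type 2. It was -2.16 without AhR knockout 1 and -1.50 without AhR knockout 2. Whether it passed depended on the array left out, as did the count over all tested genes.

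Tead1, a TEAD factor that carries YAP and TAZ to DNA, was dim on this array. Its single probe set read 64.1 and 67.1 in knockout and 91.9 and 102.8 in wild type. The groups did not overlap, and the knockout mean was 67.3% of the wild-type mean. The log2 difference of -0.47 ± 0.36 did not pass, with a 95% interval from -1.28 to 0.33 and adjusted p = 0.47.

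Ankrd1 gave the largest difference of the 8 genes. It encodes a protein with ankyrin repeats that is found in the nucleus and in the sarcomere of muscle and is induced by mechanical strain. Its signal was 102 and 80.8 in the knockout arrays and 362 and 523 in the wild-type arrays. The knockout arrays lay close together, and each was far below the lower wild-type array. The log2 difference was -2.08 ± 0.37, with a 95% interval from -2.91 to -1.25 and adjusted p = 0.042, the 61st lowest difference among tested genes. A dimmer Ankrd1 probe set read 35.7 and 18.9 in knockout against 139 and 220.1 in wild type, with a log2 difference of -2.17. Its knockout mean of 27.3 is under the lowest tested mean of 81.1, so the size of its difference is uncertain. The brightest probe set was just under that level in AhR knockout 2. Without wild type 2 the call was lost, where the log2 difference was -1.82 at adjusted p = 0.36. Without the low-signal filter the adjusted p was 0.19, with quantile normalization 0.057 and with every probe set tested by itself 0.071.

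Ccn1 and Ccn2 encode secreted matricellular proteins that bind integrins and are induced quickly by serum, by stretch and by TGF-beta. Ccn1 read 1431 and 668 in knockout, against 2703 and 3282 in wild type. AhR knockout 2 was the lowest array and AhR knockout 1 lay between it and wild type. Its log2 difference was -1.59 ± 0.42, with a 95% interval from -2.54 to -0.64 and adjusted p = 0.095. A second Ccn1 probe set read 487 and 157 in knockout and 1521 and 1779 in wild type, with a larger log2 difference of -2.50. The brighter one carries the suffix by which the array's maker marks probes that may also match other transcripts.

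Ccn2, which takes part in matrix formation, read 6320.0 and 3449 in knockout, against 12052 and 13192 in wild type. Here too the groups did not overlap and AhR knockout 2 was the lowest array. The log2 difference was -1.43 ± 0.33, with a 95% interval from -2.17 to -0.69 and adjusted p = 0.069. Without AhR knockout 1 or AhR knockout 2, the log2 difference was -2.13 and -1.05 for Ccn1 and -1.87 and -0.99 for Ccn2. Both genes passed in each of these fits, where many more of all tested genes passed too. In those fits the spread within knockout cells cannot be measured and is taken from the wild-type arrays. Without wild type 1 the log2 difference was -1.73 for Ccn1 and -1.50 for Ccn2, and without wild type 2 it was -1.45 and -1.365. Neither gene passed without a wild-type array.

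The feedback genes did not pass the test. Amotl2, of the angiomotin family that binds YAP and holds it in the cytoplasm, read 678 and 360 in knockout and 662 and 520.0 in wild type. AhR knockout 1 was the highest array and AhR knockout 2 the lowest. Its log2 difference was -0.24 ± 0.41, with a 95% interval from -1.16 to 0.68 and adjusted p = 0.76. Without AhR knockout 2 the sign turned, to 0.20. Lats2, a kinase that phosphorylates YAP and TAZ, read 1739 and 2211 in knockout and 2636 on both wild-type arrays. The knockout arrays were lower than the wild-type arrays, and the log2 difference was -0.42 ± 0.34, with a 95% interval from -1.18 to 0.33 and adjusted p = 0.49.

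Lats2 had 6 probe sets of its own, and they disagreed. The second brightest read 188 and 59.9 in knockout against 327 and 345 in wild type, a log2 difference of -1.50, at adjusted p = 0.17 when every probe set was tested. The next read 153 and 178 in knockout against 135 and 118 in wild type, with a log2 difference of 0.35. The remaining 3 had mean signals of 53 or less. The brightest has the suffix for probes that may match other transcripts, so the level of Lats2 is uncertain.

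**Figure D3:**
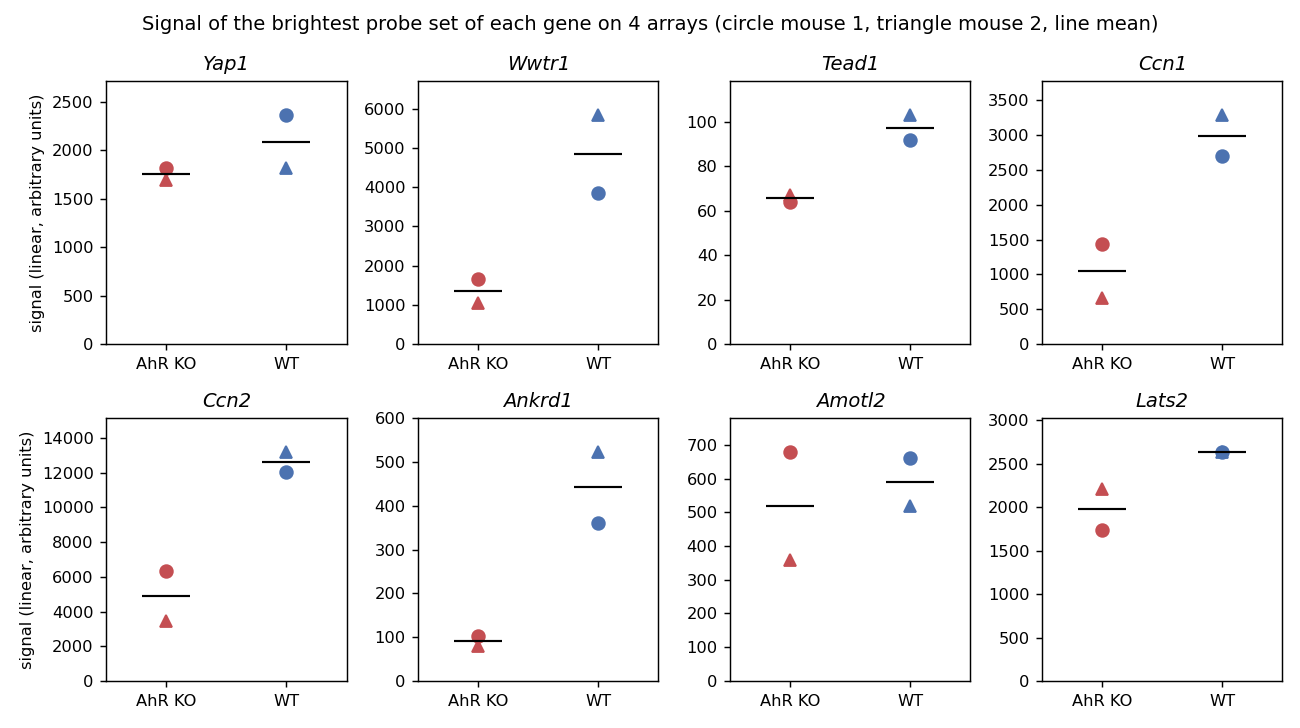
Linear signal of the brightest probe set of each of the 8 genes, with AhR knockout arrays in red and wild-type arrays in blue (circle, mouse 1, triangle, mouse 2) and a line at each group's mean. Wwtr1, Ccn1, Ccn2 and Ankrd1 show the widest gaps, with knockout means between 20.7% and 38.7% of the wild-type mean, and Yap1 and Amotl2 overlap.

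Set against the wild-type mean on the log2 scale, the knockout arrays differed in how low they read. In AhR knockout 1 Ankrd1 was at -1.93 and in AhR knockout 2 at -2.22, and Wwtr1 at -1.50 and -2.16. Ccn1 was at -1.05 and -2.13, and Ccn2 at -0.99 and -1.87. All 4 were thus lower in AhR knockout 2, which had the highest Gapdh and actin ratios. They were also below both wild-type arrays in AhR knockout 1, whose Gapdh and actin ratios were below those of wild type. The part of RNA quality in these values was not tested. Lats2 and Tead1 were lower in AhR knockout 1 than in AhR knockout 2. Over all 18 probe sets, 10 were lower without overlap, 2 were higher without overlap and 6 overlapped, and both of the higher ones belonged to Lats2. The dimmer of those had a mean signal of 0.887, so its direction is not read. Among tested genes, with a single probe set each, 26.7% were lower and 28.7% higher without overlap. The share over all probe sets was not computed, and probe sets of the same gene are not independent of each other.

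**Figure D4:**
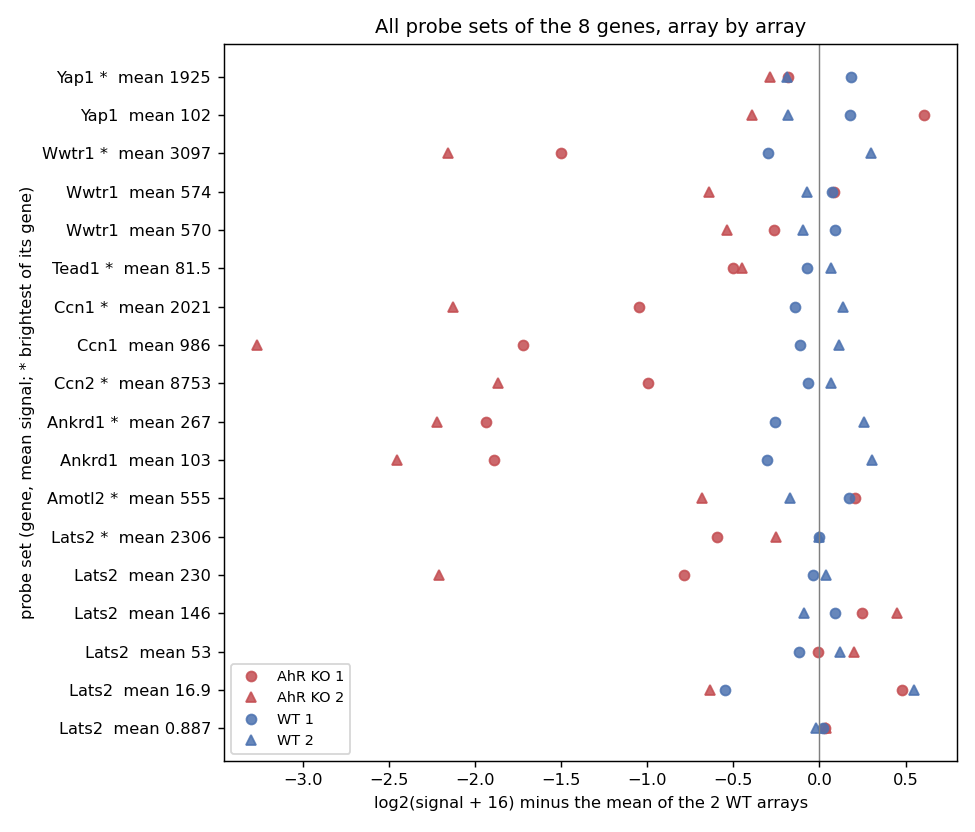
Each of the 18 probe sets of the 8 genes (rows, brightest of a gene marked with a star, mean signal in the label), as log2(signal + 16) minus the mean of the wild-type arrays, for each array. All probe sets of Ccn1, Ccn2 and Ankrd1 have both knockout arrays well below wild type, while those of Wwtr1 and Lats2 differ among themselves.

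Upstream of the coactivators, most genes of the Hippo cascade read lower in knockout cells, but none passed the test. Of 21 listed genes, 15 were measured and 13 tested, and 12 of the 13 had a negative log2 difference, with a median of -0.80. Over all tested genes 49.7% had a negative difference. At an unadjusted p under 0.05, 7 of the list were lower and 0 higher, where 12.9% of all tested genes were lower and 7.68% higher. In limma 0 of the list passed in either direction. That count rose without AhR knockout 1, AhR knockout 2 or wild type 1, as did the count over all tested genes. The median of the list was -0.71, -0.86 and -0.75 in those fits, and -0.66 without wild type 2. Taok1, a kinase that activates the MST kinases, read 253 and 255 in knockout and 657 and 1682 in wild type, a difference of -1.98 ± 0.46 on the log2 scale with adjusted p = 0.069. Map4k4, which can phosphorylate LATS kinases, read 3266 and 1740.0 against 6089 and 5769.6, a difference of -1.31 on the log2 scale, with adjusted p = 0.10. Mob1a and Mob1b, the LATS cofactors, had log2 differences of -1.28 and -1.27, with adjusted p = 0.10 and 0.17. These genes inhibit YAP and TAZ. For this list the knockout arrays 1 and 2 had medians of -0.86 and -0.71. Limd1, a LIM protein that binds LATS kinases, was the single tested gene of the list with a positive difference, 0.70 with adjusted p = 0.30.

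None of the other TEAD genes passed the test, and neither did the cofactor gene Vgll4. Of 7 listed genes 5 were measured and 4 tested, and 0 passed in limma. At an unadjusted p under 0.05, 2 were higher, where 7.68% of all tested genes were higher. A gene of the list passed without AhR knockout 1, where many more of all tested genes passed too, and the median was then 0.87. Tead4 read 119.9 and 109.6 in knockout, against 59.0 and 53.7 in wild type, a log2 difference of 0.85 ± 0.36 with adjusted p = 0.22. Its wild-type mean of 56.3 is under the lowest tested mean, so it was tested only through its knockout signal. Vgll4, which competes with YAP for TEAD, read 519.8 and 621 against 334 and 184, a difference of 1.14 ± 0.40 on the log2 scale, with adjusted p = 0.16. Tead3 and Tead2 had log2 differences of 0.71 and 0.27, with adjusted p = 0.30 and 0.78. Knockout and wild-type arrays did not overlap for Vgll4, Tead4 and Tead3, and they did for Tead2, at 235 and 79.8 in knockout against 143 and 88.5 in wild type.

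Among the other CCN genes Ccn4 fell. Ccn4, also known as WISP1 and a target of Wnt signalling, read 27.8 and 113 in knockout and 482 and 518 in wild type, a log2 difference of -2.78 ± 0.50 with adjusted p = 0.042. AhR knockout 1 was the lower knockout array here, unlike for Ccn1 and Ccn2. The knockout mean of 70.5 is under the lowest tested mean, so Ccn4 was tested only through its wild-type signal. It passed under 10 of 15 alternatives, with the highest adjusted p, 0.20, without the low-signal filter. Ccn3, known in human skin for attaching melanocytes to the basement membrane, read 163 and 309.8 in knockout and 166 and 275 in wild type, with overlapping groups and a difference of 0.07 on the log2 scale. Of the 4 further family members, 3 were measured and these 2 were tested.

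Of 17 other genes known as YAP-TAZ targets, 14 were measured and 10 tested, and 3 of them fell while none rose. Their median log2 difference was -1.29, and 7 were lower at an unadjusted p under 0.05, with 1 higher. Over all tested genes 12.9% were lower and 7.68% higher at that unadjusted p, and 0.753% fell past the threshold. Myof, a myoferlin that repairs membranes, read 124 and 107 in knockout and 517 and 685 in wild type, a log2 difference of -2.22 ± 0.36 with adjusted p = 0.036. Tgfb2, a TGF-beta ligand, read 129 and 23.3 against 435 and 877, a difference of -3.07 ± 0.59 on the log2 scale, with adjusted p = 0.049. Its knockout mean of 76.3 is under the lowest tested mean, so it was tested only through its wild-type signal. Dock5, an exchange factor for Rac, read 149 and 223 against 776 and 694, a difference of -1.92 ± 0.37 on the log2 scale, with adjusted p = 0.049. Crim1, which binds BMP ligands, read 139 and 117 against 356 and 672 and did not pass, at -1.82 on the log2 scale and adjusted p = 0.065. F3, tissue factor, was the only tested gene with a positive difference, at 148 and 128 in knockout against 46.7 and 32.0 in wild type, a log2 difference of 1.49 with adjusted p = 0.080, and was named after its value was seen. Its wild-type mean of 39.4 is under the lowest tested mean, so F3 was tested only through its knockout signal. The calls were near the threshold: Myof kept its call under 10 of 16 alternatives, Tgfb2 under 7 and Dock5 under 4, and without wild type 2 all 3 missed it, with adjusted p between 0.066 and 0.26. More genes of the list passed without either knockout array, but so did many more of all tested genes, and none passed without wild type 2. The median log2 difference was -1.79 without AhR knockout 1 and -1.31 without AhR knockout 2. It was -1.41 without wild type 1 and -1.28 without wild type 2. With the mean of its probe sets Myof had a log2 difference of -1.09.

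Genes of the actin cytoskeleton that answer to serum response factor, a regulator shared by some CCN genes, were split. Of 13 listed, all were measured and 11 tested, 6 with a negative and 5 with a positive difference, and 0 passed in limma. Unadjusted p-values under 0.05 were found for 2 lower genes and 1 higher gene, where 12.9% of all tested genes were lower and 7.68% higher. The median log2 difference was -0.44, and it was -0.59 without AhR knockout 1 and -0.05 without AhR knockout 2. Some genes of the list passed in those fits, where many more of all tested genes passed too. Vcl, vinculin of focal adhesions, read 4338 and 4360.0 in knockout and 7629 and 8363 in wild type, a log2 difference of -0.87 with adjusted p = 0.14. Tpm1, a tropomyosin, and Tagln, transgelin, differed by -1.20 and -0.79 on the log2 scale, at adjusted p = 0.16 and 0.25. Myl9, a myosin light chain, went the other way at 1.22, with adjusted p = 0.13. Acta2, smooth muscle actin, read 1769 and 911 in knockout and 2077 and 1611 in wild type, with overlapping groups.

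**Figure D5:**
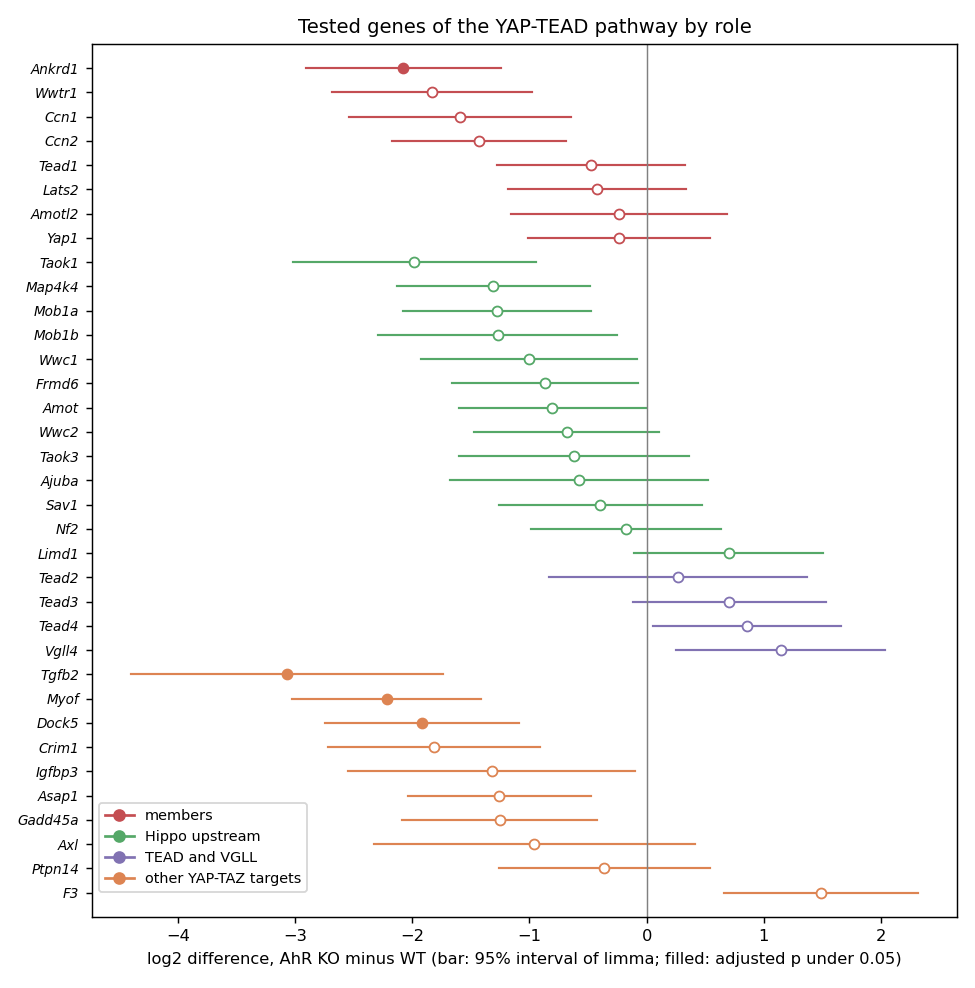
Log2 differences (AhR knockout minus wild type) with 95% intervals for the tested genes of the pathway, grouped as the 8 genes, Hippo upstream genes, TEAD and VGLL genes, and other YAP-TAZ targets, with filled points for an adjusted p under 0.05. Ankrd1, Myof, Tgfb2 and Dock5 are filled, and none of the 4 TEAD and VGLL genes, with points between 0.27 and 1.14, is.

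Some markers of other cells differed between the groups too, and the direction varied from list to list. The cultures carried strong melanocyte RNA, with Dct at 20442 and 32201 in knockout and 18026 and 16814 in wild type, and Tyrp1 at 20294 and 30093 against 19809 and 20547. Of 7 tested melanocyte markers, 6 had a positive difference, with a median of 0.72. Of the endothelial markers, 9 of 10 tested were lower in knockout, with a median of -1.58 and 0 past the test, 7 of them at an unadjusted p under 0.05. At that unadjusted p 12.9% of all tested genes were lower. Summed, the endothelial markers gave 8991.5 and 3848 in the knockout arrays 1 and 2, against 16375 and 19231 in wild type. The sum had the same order of arrays as Ccn1 and Ccn2, but it leaned on Emcn, the brightest marker. Cdh5, Kdr, Cd34, Esam and Eng read higher in wild type 1 than in wild type 2. Eng went the other way from the rest, at 1419 and 1535 in knockout against 1300 and 1211 in wild type, without overlap. Emcn, endomucin, read 3321 and 1041 in knockout against 7391 and 10176 in wild type, and Cdh5, VE-cadherin, read 1634 and 367 against 3114 and 2970. Detection calls are not given, so the presence of dim markers on each array is not known. In AhR knockout 2, Cd34, Flt1 and Tek read 62.4, 65.2 and 79.5, under the lowest tested mean, and the others were above it. Endothelial cells are known to make Ccn1 and Ccn2, and the part of endothelial RNA in the differences above was not tested. In RNA of a whole culture, fewer cells of a type and less RNA per cell cannot be told apart.

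The other marker lists moved less uniformly. Of 8 fibroblast markers 4 were tested and 3 of them were lower, with summed signals of 2623 and 1670 in knockout and 2676 and 5089 in wild type, and Col3a1 alone fell, with a log2 difference of -2.29. The knockout mean of Col3a1, 72.8, is under the lowest tested mean, so it was tested only through its wild-type signal. Thy1, the brightest, read 2181 and 1363 against 1886 and 4063. Mural cell markers summed to 1517 and 2913 in knockout and 1519 and 925 in wild type, and both tested ones, Pdgfrb and Cspg4, had positive differences of 0.51 and 1.72. Keratinocyte markers summed to 1945 and 396 against 764 and 716, with 0 of 5 tested past the threshold. Leukocyte markers summed to 3770 and 3393 in knockout and 1697 and 1705 in wild type, with 0 of 4 tested past the threshold, and Lyz2, lysozyme, was the brightest. The part of these cells in the results was not tested.

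The genes whose pattern over the 4 arrays was most like Ccn1 and Ccn2 were taken by distance between log2 values after centring each gene on its mean. Nearest to Ccn1 were Notch4, a Notch receptor of endothelium, Socs6, a suppressor of cytokine signalling, and Wnt5a, a Wnt ligand, at distances of 0.08, 0.14 and 0.14. Notch4 read 936 and 463 in knockout and 1761 and 2237 in wild type. Nearest to Ccn2 were Sh3bp5, B3gnt2 and Dock8, at distances of 0.04, 0.05 and 0.09, and Sh3bp5 read 1894 and 995 against 3542 and 3820.5. All 6 had log2 differences between -1.69 and -1.34, and none passed the test. With 4 arrays many genes share a pattern, so the likeness is a description only.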

How the data were processed

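Amplified and biotinylated RNA was put on Affymetrix arrays of a single colour, per the labels' protocols. The authors deposited linear signal intensity computed with MAS5, per the submitters' processing notes, and the mean with 2% trimmed at each end was 500.2 or 500.3 on every array. The sources used here give neither detection calls nor the version. Of the table's columns, 0 were left unused. Of 22690 probe sets, 20380 had 1 gene symbol in the platform annotation, 691 had several, 1555 had none and 64 were controls. A probe set naming Lats2 together with Xpo4 was left out. Symbols were updated by gene ID with RefSeq (GRCm38.p6), where 20351 were found.

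Values were converted to log2(signal + 16), which understates the folds of dim genes. Genes in the top 60% by mean signal were fitted with limma 3.58.1 (eBayes with a trend) in R 4.3.3, as AhR knockout minus wild type, two-sided, with Benjamini-Hochberg adjustment over 7436 genes. Intervals use limma's moderated degrees of freedom, and ± is the SE. Arrays carry no count depth, and their number limits the precision. On simulated arrays of these genes, 18.9% of 2-fold and 94% of 4-fold changes were recovered, and 6.9% of calls were false, with noise that was normal and alike on every array. Genes and lists were chosen with earlier results of these data known. Named were the 8 genes, called genes and up to 4 with the smallest p of each pathway list, the brightest cell type markers, and the 3 nearest patterns of Ccn1 and Ccn2. Acta2, Ccn3, Limd1, F3, Col3a1, Eng, Kdr and Esam were named after their values were seen. Figures were drawn with matplotlib 3.10.9.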

Additional observations from a re-analysis of the deposited data

How the results depend on the processing

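The count of genes past the threshold was 71 as reported, 15 higher and 56 lower. It was 25 with quantile normalization, 43 with a pseudocount of 1, 1 without the low-signal filter, 20 in the top 40%, 40 with the mean of probe sets and 30 with every probe set, and leaving out an array in turn gave 20 to 1360. Under equal array medians 32.4% of calls were higher, against 21.1% as reported. Of the 8 genes, 1 passed as reported. None passed with quantile normalization, without the filter, in the top 40% (which leaves out Ankrd1) or with every probe set, and leaving out an array in turn gave 0 to 4, the 0 without wild type 2. Amotl2 ran from -0.68 to 0.20 when an array was left out, and turned positive without AhR knockout 2. The other 7 genes kept a negative sign under every alternative that could be run for them. With every probe set tested, that sign is the one of the brightest probe set. Yap1, Tead1, Amotl2 and Lats2 passed under none. The causes were not tested.

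Titles number the mice 1 and 2 in both groups, with no statement that a number is shared between them. With the number as a replicate block, 1406 genes passed and 4 of the 8 did: Ankrd1, Wwtr1, Ccn1 and Ccn2. So did 5 Hippo upstream genes, 1 TEAD or VGLL gene, 9 other YAP-TAZ targets and 3 actin genes. The differences between mouse 1 and mouse 2 correlated between the groups at r = 0.353 over 7436 genes. That fit leaves 1 residual degree of freedom. A filter on mean log2 signal was added after seeing the data. It gave 51 calls and left Ankrd1 past the threshold, with adjusted p = 0.043.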

Other observations

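The TEAD letters were also looked up in the promoters of all tested genes. Of 6103 tested genes with a listed promoter, 876 held GGAATG or its reverse and 5227 did not. Their median log2 differences were 0.0039 and 0.0162. A log2 difference of -1 or lower was found for 11.1% of the genes with the letters and for 11.0% of those without, and 0.799% and 0.650% fell. Across all tested genes these values were thus close. Of the 6 pathway genes with a listed promoter, 3 were at -1 or lower: Wwtr1, Ccn1 and Ankrd1. These 6 were chosen as pathway members with earlier results known, so their share cannot be set against that of all genes. With the AhR core letters, 11.2% of 3632 genes were at -1 or lower, and without them 10.8% of 2471.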
